A study of Homo sapiens with 6 samples.

Results

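The host fibroblasts of the teratomas were mouse nuclei that carried RNA of interstitial collagen genes and of other fibroblast genes. A nucleus was a member when it had at least 500 UMIs (unique molecular identifiers, the counted RNA molecules) and 300 genes on mouse features, at least 80% of its UMIs on mouse features, a UMI for at least 3 of the 6 genes Col1a1, Col1a2, Col3a1, Pdgfra, Dcn and Lama2, and a UMI for fewer than 2 of the 3 genes Inhba, Tnc and Mmp13. Members were thus chosen by measured values, the UMIs of these 9 genes, whose levels are given below as a description only. The rule found 2134 members among 4009 mouse nuclei, in 63192 barcodes of the 6 libraries. The teratomas grew from the human embryonic stem cell line H1, injected with Matrigel under the flank skin of NSG mice, an immunodeficient strain. The injected cells were ΔATG for the long non-coding RNA lncPRESS1 (called DATG in the sample titles), KO for it, or WT, with 2 libraries per group. All host cells are therefore from NSG mice that differ in the tumour they carried and not in a label of their own genotype, and whether the libraries of 1 group stem from different tumours, mice or cell clones is not in the labels. Each p-value between conditions thus sets a difference against how far these libraries differ, which may be technical. In comparisons with other host nuclei the library is a block, and the difference is set against the spread that remains.

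Fibroblasts build and remodel the extracellular matrix: they secrete fibrillar collagens I and III, fibronectin, proteoglycans and elastic fibre proteins, and they answer to platelet-derived growth factor through the receptor Pdgfra. In skin and fascia, fibroblasts around vessels and in the outer connective tissue sheets (adventitial fibroblasts, marked by Pi16 and Dpp4) are set apart from others in the tissue, and tumours and healing wounds hold activated or contractile forms. A transplanted tumour draws such stroma, together with vessels and macrophages, from its host.

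The member nuclei fitted their label for Prrx1 and Cdh11, genes that the rule had not used. Prrx1, a transcription factor of connective tissue mesenchyme, had a UMI in 80.3% of members, against 1.97% of macrophage nuclei, 2.16% of endothelial nuclei and 1.78% of human nuclei. Cdh11, a cadherin of mesenchymal cells, had one in 63.3% of members, against 1.97% of macrophage nuclei, none of 185 endothelial nuclei and 1.79% of human nuclei. Twist2 had one in only 15.2% of members, against 0% of macrophage and endothelial nuclei and 0.181% of human nuclei. Such shares were not counted in the nuclei with at least 2 of Inhba, Tnc and Mmp13. Macrophage and endothelial nuclei were the mouse nuclei with at least 3 markers of their type that were no members, and their median depths of 1750 and 2068 mouse UMIs were near the 2094 of the members, while human nuclei held a median of 16 mouse UMIs. The collagen genes were the weakest part of the rule. Col1a1 had a UMI in 89.9% of members, but also in 22.4% of macrophage nuclei and 24.1% of human nuclei, and it made up 2342 counts per 1000000 (CPM) of the members' UMIs, against 135 CPM in macrophage nuclei and 6253 CPM of the mouse UMIs found in human nuclei. Pdgfra, by contrast, had a UMI in 39.3% of members, against 0.518% of macrophage nuclei and 0.596% of human nuclei. Of the members, 193 (9.04%) had no UMI for Pdgfra, Dcn or Lama2 and so rested on the collagens.

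At the edge of the rule, 406 nuclei had exactly 3 of the positive genes and were just inside, and 342 had exactly 2 and were just outside. At least 3 macrophage markers were present in 38 of those just inside and in 153 of those just outside. Among all members, 124 had at least 2 macrophage markers, 45 had at least 2 endothelial markers, 138 had at least 3 skeletal muscle markers, and 555 had a UMI for exactly 1 of the exclusion genes.

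The 6 libraries held 35785812 to 47574535 UMIs in 6504 to 13489 barcodes, human and mouse together. The members held 421263 to 2439719 UMIs per library, with medians of 1528 to 2785 UMIs per nucleus. DATG replicate 2 stood apart before any result: it gave 927 of the 2134 members, 1870 of the 3833 barcodes that mixed both species, and a median of 74 mouse UMIs in human nuclei, against 12 to 33 in the other libraries. The summed level of the 12 macrophage markers in members was 456 and 425 CPM in DATG, 275 and 264 CPM in KO, and 445 and 192 CPM in WT, against 9534 CPM in macrophage nuclei. In the human nuclei of DATG replicate 2 the summed level of the 8 skeletal muscle markers was 13279 CPM of the mouse UMIs, against 118 to 231 CPM in the other 5 libraries. Of all barcode strings, 452 occurred in more than 1 library, and no member shared its string with a member of another library, while 29 members shared theirs with some barcode elsewhere.

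The nuclear RNA Malat1 had a mean of 45890 CPM over libraries. CPM values are not divided by gene length, so the 20 genes of highest mean CPM serve only as a choice of genes to name, and their order is no ranking of RNA levels. Among them were matrix genes (Col3a1, Col8a1, Col1a2, Col1a1, Lama2, Fbn1 and Col5a2), the proteoglycan core gene Gpc6 and the heparan sulphate polymerase gene Ext1, the guidance ligand Slit3, and the regulators Ebf1, Zbtb20, Rbms3 and Bnc2. Ebf1, a transcription factor of adipose and stromal precursors, was steady, with 4609 and 4842 CPM in DATG, 3834 and 4501 CPM in KO, and 4350 and 4012 CPM in WT. The fibrillin-1 gene Fbn1, which codes for the microfibrils of elastic tissue, ranged more, with 1401 and 3634 CPM in DATG, 2378 and 3748 CPM in KO, and 1292 and 2262 CPM in WT. Col8a1, a short-chain network collagen, had 2921 and 3490 CPM in DATG, 1647 and 1545 CPM in KO, and 3873 and 3963 CPM in WT, so that both KO libraries lay below the other 4. The genes of the rule itself, given as a description, differed in how far replicates lay apart. Col1a2, a chain of collagen I, had 3552 and 3817 CPM in DATG, 3160 and 2355 CPM in KO, and 1953 and 2545 CPM in WT, with both DATG libraries above the other 4. Tnc, which codes for tenascin C, had 135 and 208 CPM in DATG, 540 and 1495 CPM in KO, and 245 and 514 CPM in WT, so that the groups did not overlap. Dcn, the decorin gene, had 519 and 496 CPM in DATG, 825 and 804 CPM in KO, and 444 and 1061 CPM in WT. The values of Pdgfra and Lama2 crossed between groups. Pdgfra had 646 and 174 CPM in DATG, 568 and 273 CPM in KO, and 411 and 291 CPM in WT. Lama2, the laminin alpha chain of muscle and stromal basement membranes, had 4450 and 1421 CPM in DATG, 2578 and 2075 CPM in KO, and 2345 and 1979 CPM in WT.

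Fibroblasts were the largest of the 4 host classes counted, the others being 966 macrophage nuclei, 258 nuclei with at least 2 of Inhba, Tnc and Mmp13, and 185 endothelial nuclei. They made up 54.1% and 60.2% of mouse nuclei in DATG libraries, 47.4% and 38.1% in KO libraries, and 56.2% and 53.8% in WT libraries. The exact 95% Clopper-Pearson intervals, which cover counting error only, ran over 48.8% to 59.4% and 57.7% to 62.7% in DATG, 42.7% to 52.2% and 34.4% to 41.9% in KO, and 51.3% to 61.1% and 49.7% to 57.8% in WT. The KO libraries had the lowest shares, and they overlapped neither DATG nor WT. The difference was -12.2 percentage points between KO and WT, 14.4 between DATG and KO and 2.20 between DATG and WT, where the groups overlapped. In two-sided exact permutation tests these gave p = 0.333, 0.333 and 0.667, and 0.333 is the smallest p that 2 libraries against 2 allow. After each mouse nucleus was thinned to 500 mouse UMIs, the shares were 40.7% and 37.3% in DATG, 37.1% and 20.5% in KO, and 28.0% and 35.2% in WT. On that scale KO overlapped WT, with a difference of -2.76 points, and DATG lay above both other groups. As a share of all nuclei, fibroblasts were 1.51% and 11.0% in DATG, 1.999% and 2.91% in KO, and 3.802% and 2.48% in WT. The nuclei with at least 2 of Inhba, Tnc and Mmp13, which the rule kept out, numbered 5.79 and 3.02 per 100 fibroblasts in DATG, 14.2 and 53.6 in KO, and 13.4 and 7.14 in WT.

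**Figure D1:**
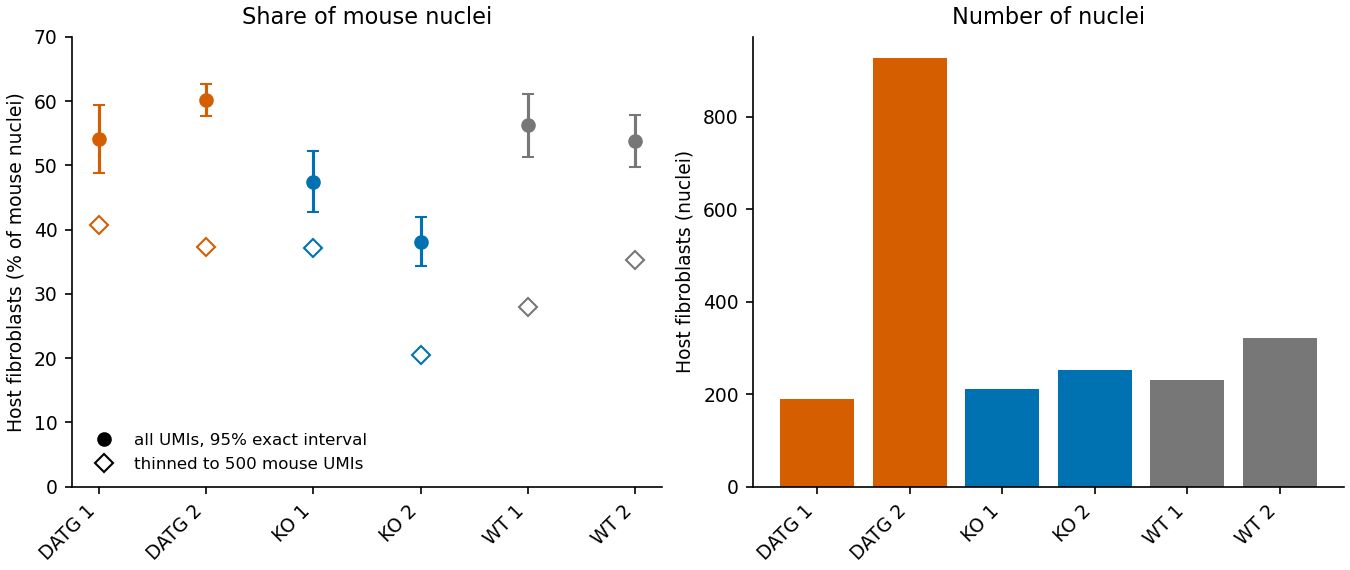
Left, host fibroblasts as a percentage of mouse nuclei in each library, with filled circles and 95% exact intervals for all UMIs and open diamonds after thinning to 500 mouse UMIs. The KO libraries (47.4% and 38.1%) are lowest before thinning, and after it KO replicate 1 (37.1%) lies above both WT libraries. Right, the number of fibroblast nuclei per library, of which DATG replicate 2 holds 927.

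Leiden clustering split the members into 8 sub-clusters, which are described here by number and leading genes and were not tested, since the same genes made them. Beyond the 6 genes that lead each by fold, genes were picked after their values were seen. Sub-cluster 2 (473 nuclei) had the highest summed level of the adventitial list, 10738 CPM against 707 to 3959 CPM in the others: Dpp4 had 363 CPM there, against 29.5 CPM in the other members, Clec3b 316 against 18.3 CPM, the tenascin X gene Tnxb 869 against 66.2 CPM, complement C7 634 against 27.6 CPM, and the lubricin gene Prg4 827 against 65.4 CPM. Sub-cluster 3 (574 nuclei) was led by Ano1, Rgs5, Tbx2, Itgb8 and Il6, with the tenascin C gene Tnc, an exclusion gene, at 1011 CPM against 210 CPM. Sub-cluster 5 (158 nuclei) was led by Gipr, Glt1d1, Kctd16, Car12, Nos2 and Tafa2. Next in order stood genes known to respond to low oxygen, Egln3 (146 against 13.0 CPM), Ankrd37 (58.2 against 4.83 CPM), the oxidase gene Ero1a (576 against 61.7 CPM) and placental growth factor Pgf (105 against 10.4 CPM). The summed level of the glycolysis and hypoxia list was 4075 CPM there and 594 to 1502 CPM in the other sub-clusters.

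Sub-cluster 6 (288 nuclei) was led by Nalf1, Lamc3, Trhde, Kcnn2, Itga8, Corin and Rgs6, of which Corin is known from the dermal papilla of the hair follicle. Its Pdgfra level of 880 CPM and its Lama2 level of 5148 CPM were the highest of the 8, and so was the summed level of the WNT list (4540 CPM). Sub-cluster 7 (48 nuclei) had Cntn3, Ntng1, Scube1, Msln and Itgb4 as leading genes. The other sub-clusters had genes of other cell types among their leading genes. Sub-cluster 1 (82 nuclei) had the macrophage genes F13a1, Ptprc, Msr1 and Mrc1 in front, with a summed macrophage marker level of 5629 CPM, and sub-cluster 8 (12 nuclei) the endothelial genes Adgrl4, Egfl7, Emcn and Vwf. Sub-cluster 4 (499 nuclei) had Agbl1 first (356 against 8.06 CPM), and its leading genes held muscle and skin genes (Mybpc1, Xirp2, Trdn, Ttn, Neb and Krt77). Ttn, the giant protein of the sarcomere, was at 999 CPM against 62.6 CPM. Its fibroblast markers, all genes of the rule, summed to 10116 CPM, against 3657 CPM in sub-cluster 1 and 3866 CPM in sub-cluster 8. Its summed level of the activated fibroblast list, 11330 CPM, was the highest of the 8.

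The sub-clusters were unevenly spread over the libraries, replicates included. Sub-cluster 6 held 57.9% and 0.324% of the fibroblasts in DATG, 45.3% and 5.95% in KO, and 24.2% and 2.48% in WT. In each group replicate 1 was thus the higher. DATG replicate 2 gave 415 of the 499 nuclei of sub-cluster 4, which were 44.8% of its fibroblasts, against 10% in DATG replicate 1 and 1.42% to 10.4% in the KO and WT libraries. Sub-cluster 2 held 5.79% and 25.1% of fibroblasts in DATG, 20.8% and 33.3% in KO, and 13.4% and 21.7% in WT, and sub-cluster 3 held 16.8% and 13.3% in DATG, 29.7% and 50.4% in KO, and 38.5% and 43.5% in WT. Both DATG libraries were below the other 4 for sub-cluster 3.

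**Figure D2:**
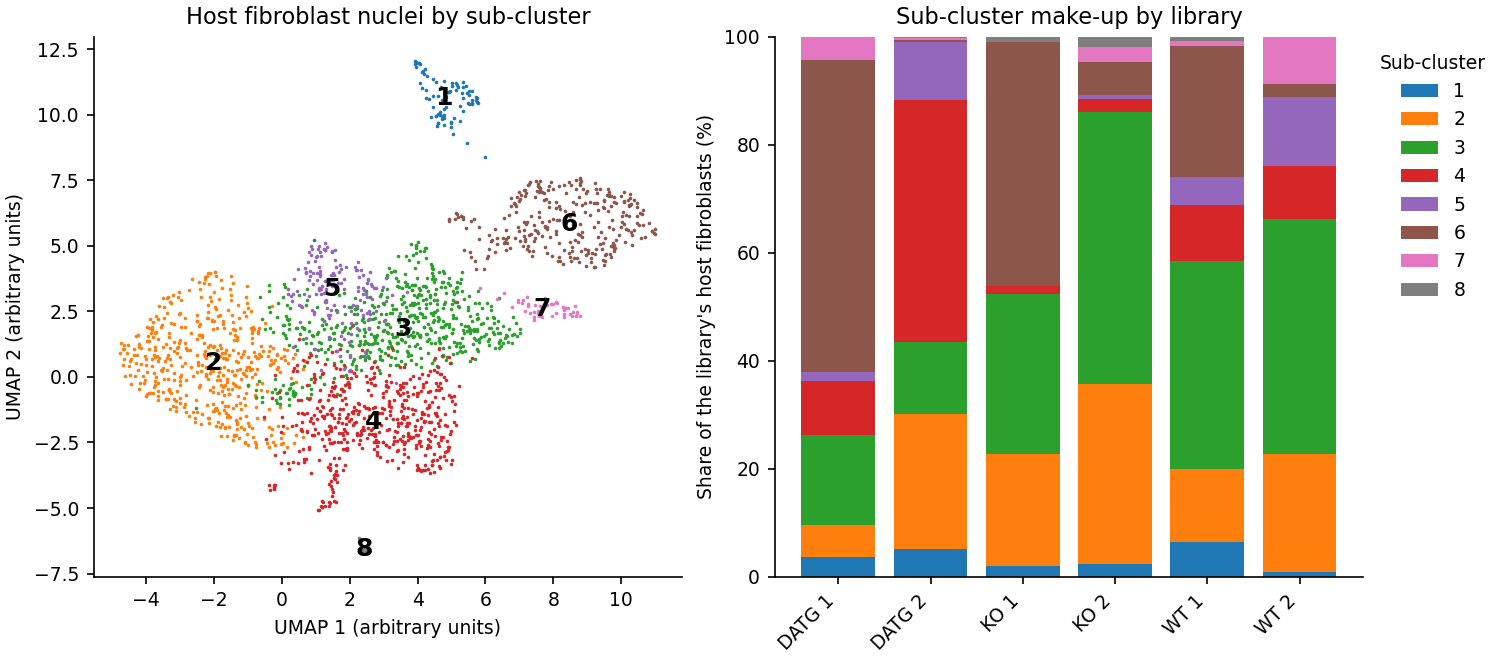
Left, the 2134 host fibroblast nuclei on a UMAP (arbitrary units), coloured and numbered by sub-cluster. Right, the share of each library's fibroblasts in each sub-cluster, in percent; sub-cluster 6 takes 57.9%, 45.3% and 24.2% in the replicate 1 libraries of DATG, KO and WT and at most 5.95% in the replicate 2 libraries, and sub-cluster 4 takes 44.8% in DATG replicate 2.

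Between KO and WT tumours, no gene of the host fibroblasts passed an adjusted p of 0.05 among 9804 tested (0% called by edgeR's quasi-likelihood test), while 406 had an unadjusted p under 0.05 and DESeq2 called 1. That gene was Prg4, which codes for lubricin, a mucin-like protein that lubricates joints and gliding tissue layers. It had 72.8 and 61.6 CPM in DATG, 573 and 1378 CPM in KO, and 59.0 and 108 CPM in WT, and both KO libraries lay far above the other 4. Its log2 fold change for KO against WT was 3.55 (SE 0.52), with an unadjusted p of 0.000152 and an adjusted p of 0.997 by edgeR, and an adjusted p of 1.92e-07 by DESeq2. A UMI for Prg4 was present in 4.74% and 7.55% of fibroblasts in DATG, 19.8% and 36.1% in KO, and 7.79% and 10.2% in WT. In macrophage nuclei, which were 0.518% positive, its level did not exceed 3.84 CPM in any library. In the nuclei with at least 2 of Inhba, Tnc and Mmp13, KO overlapped DATG. The level there was 114 and 9.5 CPM in DATG, 49.0 and 639 CPM in KO, and 0 and 19.25 CPM in WT. Within sub-cluster 2, which held most of its UMIs, the Prg4 level was 264 and 93.1 CPM in DATG, 1857 and 2863 CPM in KO, and 325 and 302 CPM in WT. Without sub-clusters 1, 4 and 8 it was 80.9 and 84.7 CPM in DATG, 621 and 1360 CPM in KO, and 74.0 and 106 CPM in WT. Among the mouse UMIs found in human nuclei, Prg4 was at 46.7 and 33.6 CPM in DATG, 206 and 177 CPM in KO, and 43.9 and 91.3 CPM in WT.

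The other genes named by the same rule did not pass in either tool. The cytokine gene Il6 had 2.21 and 2.66 CPM in DATG, 32.6 and 123 CPM in KO, and 6.28 and 7.49 CPM in WT (log2 fold change for KO against WT 3.51, SE 0.70, adjusted p by edgeR 0.997). Serpinb2, an inhibitor of plasminogen activators, had 11.0 and 1.33 CPM in DATG, 86.2 and 82.2 CPM in KO, and 2.51 and 0 CPM in WT, with UMIs in only 4 and 9 nuclei of the KO libraries. Ppa1, a cytosolic pyrophosphatase, had 33.1 and 34.1 CPM in DATG, 86.2 and 143 CPM in KO, and 20.1 and 39.0 CPM in WT. Gm14636, a transcript with no name beyond its model number, had 28.7 and 49.7 CPM in DATG, 147 and 332 CPM in KO, and 45.2 and 44.9 CPM in WT. On the lower side stood Fmo2, a flavin monooxygenase, with 19.9 and 40.3 CPM in DATG, 6.99 and 10.7 CPM in KO, and 41.4 and 89.9 CPM in WT (log2 fold change -2.83, SE 0.61). Tef, a transcription factor under the circadian clock, had 53.0 and 85.6 CPM in DATG, 23.3 and 25.9 CPM in KO, and 74.1 and 83.9 CPM in WT. Rgl1, an exchange factor for Ral proteins, had 199 and 240 CPM in DATG, 163 and 171 CPM in KO, and 374 and 418 CPM in WT. The transporter gene Abca8b and Srgap3 had log2 fold changes of -1.86 and -1.43. These genes were chosen from those whose KO and WT libraries did not overlap. That held for 16.9% of all tested genes in the higher and 17.4% in the lower direction.

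Of the gene lists, the immediate early and heat shock genes, which many cells switch on soon after a stimulus or during tissue handling, lay above 0 for KO against WT throughout, although lists described further on had larger medians. None of 19 passed the test, all 19 had a fold change above 0 for KO against WT, and their median log2 fold change was 1.06, beside 0.02 for all tested genes, while 11 of the 19 had KO above WT without overlap, beside 16.9% of all tested genes. The phosphatase gene Dusp1 had 30.9 and 49.2 CPM in DATG, 69.9 and 126 CPM in KO, and 18.8 and 36.0 CPM in WT. The AP-1 gene Junb had 48.5 and 64.7 CPM in DATG, 154 and 158 CPM in KO, and 60.3 and 98.9 CPM in WT. The summed level of this list was also highest in KO in macrophage nuclei, with 737 and 847 CPM in DATG, 1242 and 1551 CPM in KO, and 775 and 1140 CPM in WT, and in mouse UMIs of human nuclei, with 1100 and 1389 CPM in DATG, 2024 and 2750 CPM in KO, and 897 and 1596 CPM in WT. The part of tissue handling in the fibroblast values was not tested.

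Inflammatory fibroblast genes (13 tested) had 11 above 0 and a median of 1.11 for KO against WT, none of them past the test, and 6 higher without overlap, beside 16.9% of all genes. The summed level of this list overlapped between KO and WT, with 605 and 1145 CPM in DATG, 1652 and 4869 CPM in KO, and 883 and 1797 CPM in WT. In macrophage nuclei it was 293 and 231 CPM in DATG, 505 and 668 CPM in KO, and 179 and 391 CPM in WT. In mouse UMIs of human nuclei it was 587 and 830 CPM in DATG, 2107 and 3053 CPM in KO, and 751 and 1556 CPM in WT. KO was highest in both, and the part of such RNA in the fibroblast values was not tested. Csf1, the growth factor of macrophages, had 81.6 and 68.3 CPM in DATG, 228 and 206 CPM in KO, and 111 and 115 CPM in WT. Ptgs2, the inducible cyclooxygenase, had 2.21 and 32.4 CPM in DATG, 41.9 and 172 CPM in KO, and 11.3 and 22.5 CPM in WT. The alarmin gene Il33 owed its high KO mean to KO replicate 2: it had 139 and 419 CPM in DATG, 289 and 2662 CPM in KO, and 320 and 584 CPM in WT. Contractile genes (10 tested) had 9 above 0 and a median of 0.75, with 6 of them higher and 1 lower without overlap, beside 16.9% and 17.4% of all genes, among them the smooth muscle actin gene Acta2 with 106 and 8.87 CPM in DATG, 114 and 88.3 CPM in KO, and 54.0 and 42.0 CPM in WT. Of the matrix lists, the 10 network and microfibril collagens had 7 above 0 and a median of 0.71, with 6 higher and 2 lower without overlap. The summed level of this list went the other way, with KO below WT without overlap. It was 5279 and 4304 CPM in DATG, 4216 and 3415 CPM in KO, and 5261 and 5107 CPM in WT. The median was 0.24 for 9 fibrillar collagens (3 of which are genes of the rule), 0.43 for 19 adhesive glycoproteins and 0.37 for 17 elastic fibre genes.

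**Figure D3:**
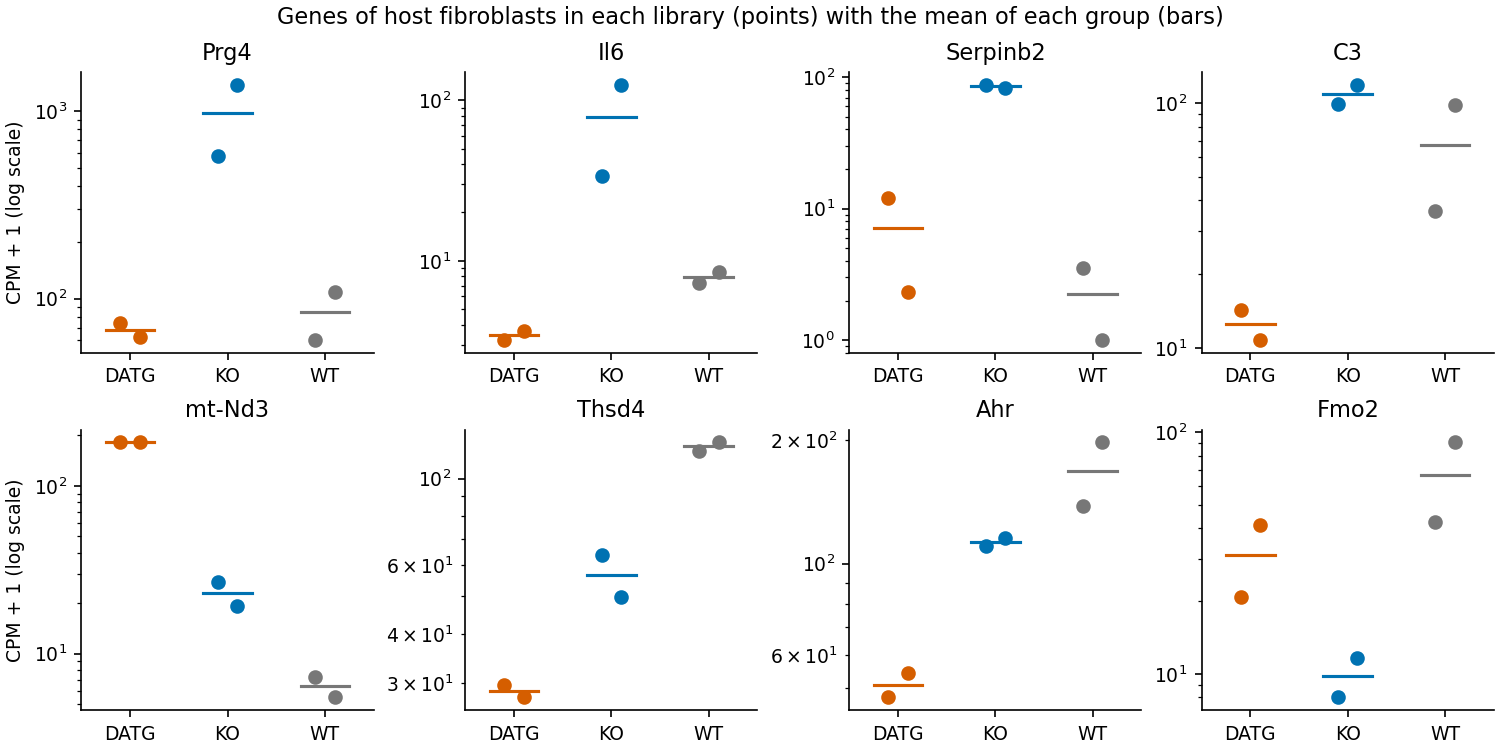
CPM + 1 (log scale) of 8 genes in the host fibroblasts of each library, as points, with the mean of each group as a bar; DATG, KO and WT run from left to right. Prg4 lies at 573 and 1378 CPM in KO and at 59.0 to 108 CPM in WT, and mt-Nd3 at 181 and 180 CPM in DATG and at 6.28 and 4.49 CPM in WT.

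Between DATG and WT, 1 gene passed the test (0.0102% of the genes tested), against 381 with an unadjusted p under 0.05 and 16 called by DESeq2. It was mt-Nd3, a subunit of respiratory complex I encoded in the mitochondrial genome. Its level was 181 and 180 CPM in DATG, 25.6 and 18.3 CPM in KO, and 6.28 and 4.49 CPM in WT. These levels rest on 82 and 407 UMIs in DATG, 11 and 12 in KO, and only 5 and 3 in WT. The WT UMIs came from 5 and 3 nuclei. The groups stood in 3 separate steps, and mt-Nd3 rose in DATG by 5.02 on the log2 scale against WT (SE 0.40, adjusted p 0.0133 by edgeR). The call was lost, with the size of the change kept at 4.61 to 5.26, in the fit of the DATG and WT libraries alone (adjusted p 0.0884), without KO replicate 2 (0.0547), without WT replicate 1 (0.44) or 2 (0.431), in members with at least 90% mouse UMIs (0.095) and without sub-clusters 1, 4 and 8 (0.0509).

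All 12 tested mitochondrially encoded genes shared its direction, with a median log2 fold change of 3.45 for DATG against WT, 2.15 for DATG against KO and 1.36 for KO against WT. The cytochrome oxidase gene mt-Co2 had 2775 and 2076 CPM in DATG, 659 and 565 CPM in KO, and 151 and 286 CPM in WT (adjusted p for DATG against WT 0.0784 by edgeR and 6.95e-14 by DESeq2). All 12 had DATG above WT without overlap, beside 15.6% of all genes higher and 15.2% lower. Their joint share of the members' UMIs was 1.60% and 1.61% in DATG, 0.432% and 0.340% in KO, and 0.114% and 0.204% in WT. DATG was also highest in macrophage and endothelial nuclei, while KO and WT overlapped in macrophages: the share was 2.01% and 1.67% in DATG, 0.778% and 0.478% in KO, and 0.255% and 0.528% in WT for macrophages, and 1.21% and 1.22% in DATG, 0.729% and 0.661% in KO, and 0.0547% and 0.0471% in WT for endothelium. In the nuclei with at least 2 of Inhba, Tnc and Mmp13 the groups overlapped, with 2.47% and 0.935% in DATG, 1.095% and 0.328% in KO, and 0.384% and 0.0404% in WT. In mouse UMIs of human nuclei it was 1.56% and 11.9% in DATG, 1.19% and 0.751% in KO, and 0.413% and 0.735% in WT. Mitochondrial RNA lies outside the nucleus, and the part of carried-over cytoplasm in these values was not tested. Reads of mitochondrial genes can also fall on their nuclear copies.

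**Figure D4:**
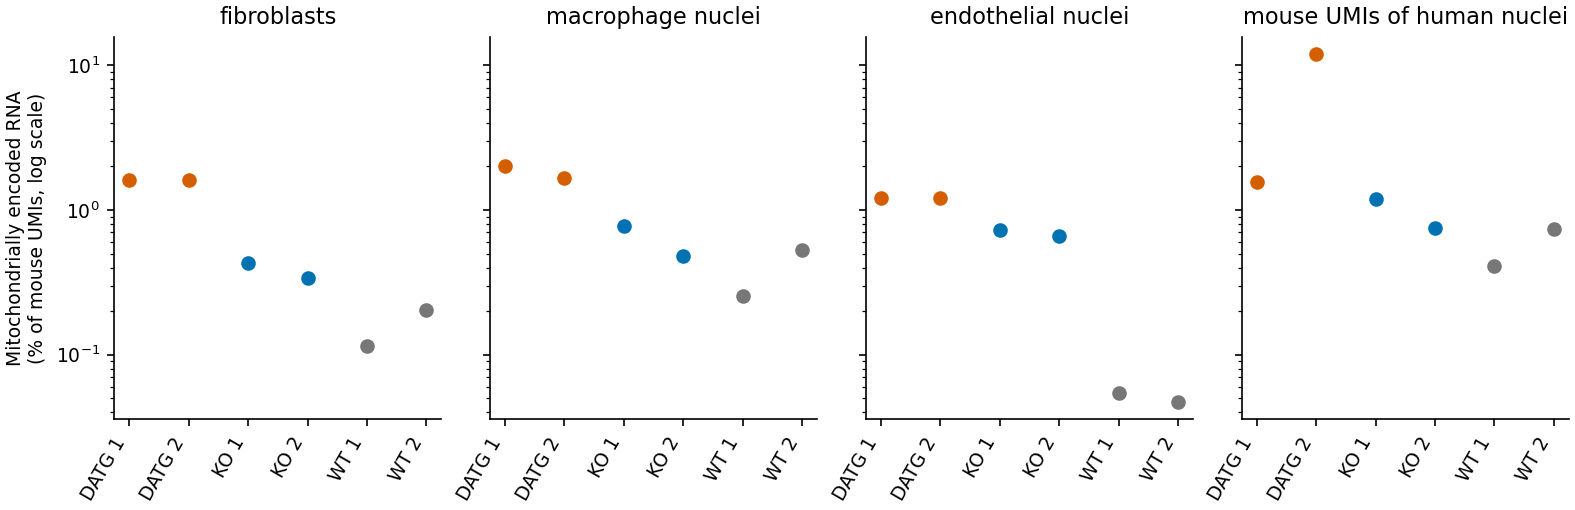
Mitochondrially encoded RNA as a percentage of mouse UMIs (log scale) in each library, for host fibroblasts, macrophage nuclei, endothelial nuclei and the mouse UMIs of human nuclei. DATG libraries are highest in each panel, at 1.60% and 1.61% in fibroblasts, and DATG replicate 2 reaches 11.9% in human nuclei.

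On the lower side in DATG, no gene passed by edgeR. Thsd4, whose protein joins fibrillin microfibrils, had 28.7 and 26.6 CPM in DATG, 62.9 and 48.7 CPM in KO, and 117 and 123 CPM in WT (log2 fold change for DATG against WT -2.12, SE 0.31, adjusted p by edgeR 0.15 and by DESeq2 0.0296). Sub-cluster 3, whose share was lowest in DATG, held 72 of 93 and 66 of 82 of its WT UMIs. Within that sub-cluster the level was 24.5 and 59.3 CPM in DATG (2 and 18 UMIs), 141 and 57.5 CPM in KO, and 261 and 231 CPM in WT. The aryl hydrocarbon receptor gene Ahr, a sensor of aromatic compounds, had 46.3 and 53.2 CPM in DATG, 110 and 114 CPM in KO, and 137 and 196 CPM in WT (log2 fold change -1.73, SE 0.31, adjusted p by edgeR 0.481). Gcnt7, of a family of sugar transferases, had 4.41 and 1.77 CPM in DATG, 37.3 and 25.9 CPM in KO, and 33.9 and 19.5 CPM in WT. Gm20275, an unnamed transcript, had 24.3 and 9.75 CPM in DATG, 133 and 85.3 CPM in KO, and 72.8 and 106 CPM in WT, and 1500015L24Rik was the last gene named on this side. In macrophage nuclei DATG was also lowest for Gcnt7, Gm20275 and 1500015L24Rik, while DATG and WT overlapped for Ahr and Thsd4. Gcnt7 had 15.7 and 8.66 CPM in DATG, 90.8 and 38.3 CPM in KO, and 37.0 and 26.9 CPM in WT macrophages. Gm20275 had 26.1 and 18.8 CPM in DATG, 85.8 and 43.8 CPM in KO, and 104 and 57.6 CPM in WT macrophages.

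Glycolysis and hypoxia genes had 18 of 19 below 0 for DATG against WT, with a median log2 fold change of -0.60 beside 0.03 for all tested genes. None passed, and 11 were lower without overlap, beside 15.2% of all genes. Hexokinase 2 (Hk2) had 22.1 and 43.9 CPM in DATG, 156 and 305 CPM in KO, and 69.0 and 114 CPM in WT. The glucose transporter gene Slc2a1 had 11.0 and 12.4 CPM in DATG, 28.0 and 59.4 CPM in KO, and 31.4 and 30.0 CPM in WT. The summed level of this list in macrophage nuclei was 1730 and 1031 CPM in DATG, 1908 and 2158 CPM in KO, and 1822 and 1773 CPM in WT. In endothelial nuclei DATG lay above WT, with 871.5 and 1168 CPM in DATG, 1243 and 1616 CPM in KO, and 779.5 and 777 CPM in WT. Skeletal muscle markers moved the other way, through DATG replicate 2: the summed level in fibroblasts was 276 and 1757 CPM in DATG, 166 and 103 CPM in KO, and 151 and 295 CPM in WT. Ttn, per UMI as counted, had 0 and 614 CPM in DATG, 0 and 1.39 CPM in KO, and 0 and 86.8 CPM in WT. In macrophage nuclei of DATG replicate 2 the same 8 markers summed to 876 CPM, against 6.74 to 35.6 CPM in the other libraries. Without sub-clusters 1, 4 and 8 the fibroblast level of DATG replicate 2 was 580 CPM. With either DATG replicate left out, no spread within DATG is measured. The log2 fold change of mt-Nd3 for DATG against WT was 4.99 without DATG replicate 2 and 5.01 without DATG replicate 1.

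Between DATG and KO, 788 genes had an unadjusted p under 0.05, none passed the edgeR test (0% called), and DESeq2 called 36. Of all genes, 19.3% lay higher and 17.7% lower in DATG without overlap. Prg4 had a log2 fold change of -3.87 (SE 0.53, adjusted p 0.305 by edgeR and 6.05e-10 by DESeq2), and Il6 one of -4.89 (SE 0.77, adjusted p 0.305 and 0.00117). The complement gene C3 had 13.2 and 9.75 CPM in DATG, 97.8 and 117 CPM in KO, and 35.2 and 97.4 CPM in WT. The unnamed transcript 8030451A03Rik had 15.4 and 5.32 CPM in DATG, 247 and 414 CPM in KO, and 57.7 and 150 CPM in WT. On the higher side of DATG stood mt-Nd3, mt-Cytb, mt-Nd4 and mt-Nd1 and the basement membrane gene Fras1, which had 39.7 and 69.2 CPM in DATG, 9.32 and 6.09 CPM in KO, and 13.8 and 21.0 CPM in WT. Without sub-clusters 1, 4 and 8, Fras1 was at 32.9 and 9.87 CPM in DATG and 10.1 and 4.51 CPM in KO, so that the groups overlapped. In DATG replicate 2, sub-cluster 4 gave 138 of its 156 UMIs. Of the inflammatory list, 12 of 13 were below 0 with a median of -1.56, and 9 were lower without overlap, beside 17.7% of all genes. The summed level of this list ran from 331 CPM in sub-cluster 6 to 2790 CPM in sub-cluster 2. Without sub-clusters 1, 4 and 8 it was 521 and 1477 CPM in DATG and 1713 and 5172 CPM in KO. The part of the sub-cluster make-up in these values was not tested. The immediate early and heat shock list had 16 of 19 below 0 and a median of -0.84. DATG is set against KO here, so these values share the KO libraries with those given above for KO against WT.

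The nearest other host class was the 258 nuclei with at least 2 of Inhba, Tnc and Mmp13, of which 234 also had at least 3 of the positive genes. Both classes were set by genes of the rule, which were given no test, and the comparison describes what else differs between 2 classes so defined. In the 5 libraries with at least 20 nuclei of both (DATG replicate 1 had 11 and was left out), 335 of 6724 genes passed (4.98%), of which 187 (2.78%) were higher and 148 (2.2%) lower in fibroblasts, with the library as a block; DESeq2 called 231. Adventitial genes were the leading group on the higher side: 10 of 14 passed and all 14 were above 0, with a median log2 fold change of 2.26 beside 0.00 for all tested genes. The members were not alike in this list. Its summed level was 10738 CPM in sub-cluster 2 and 707 to 3959 CPM in the other sub-clusters, against 2327 CPM in the other class. In sub-clusters 3, 5 and 6 it was 2409, 2820 and 1558 CPM. Dpp4 and Sema3e, given below, are leading genes of sub-cluster 2. Pi16, a peptidase inhibitor, had 237 CPM in DATG replicate 2, 142 and 141 CPM in KO, and 49.2 and 137 CPM in WT fibroblasts, against 20.7 CPM in DATG replicate 2, 26.4 and 13.5 CPM in KO, and 0 CPM in both WT libraries for the other class (log2 fold change 3.46, SE 0.38, adjusted p 2.1e-06). Dpp4, a membrane peptidase, averaged 139 ± 23.6 CPM in fibroblasts and 15.9 ± 15.3 CPM in the other class (SD, n = 5 libraries each, log2 fold change 3.30, adjusted p 4.35e-06). The semaphorin gene Sema3c averaged 401 ± 161 CPM in fibroblasts and 47.4 ± 35.6 CPM in the other class, and its relative Sema3e 107 ± 52.5 CPM and 5.11 ± 4.82 CPM.

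Elastic tissue genes were split. The elastin gene Eln rose in fibroblasts, with 342 ± 145 CPM, against 36.1 ± 29.6 CPM in the other class (log2 fold change 3.13, adjusted p 1.89e-05), and the fibulin gene Efemp1 had 192 against 36.2 CPM, while Ltbp2 fell, with 197 against 383 CPM. The summed count was 2 of 16 higher and 1 lower, beside 2.78% and 2.2% of all tested genes. Of the complement list, 3 of 10 were higher (C7, C4b and Cd55) and none lower, beside the same shares. Of the transcription factors 4 of 21 were higher, Creb5, Nfia, Klf4 and Foxo1, beside 2.78% of all tested genes. The macrophage genes F13a1 and Mrc1 were also higher in fibroblasts, at 152 and 108 CPM, against 13.5 and 8.72 CPM; both lead sub-cluster 1, and the summed level of all 12 macrophage markers was 369 CPM in fibroblasts and 101 CPM in the other class.

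Of all tested genes, 2.2% were lower and 2.78% higher in fibroblasts, and the list counts that follow stand beside these shares. Lower in fibroblasts were 6 of 8 contractile genes, with a median of -0.84 and all 8 below 0: Tpm1 (-1.07), Actn1 (-0.97), Cald1 (-0.71), Acta2 (-1.38), Palld (-0.68) and Tagln (-0.99). Glycolysis and hypoxia genes were below 0 in 17 of 17, and 3 passed, the growth factor gene Vegfa (190 against 391 CPM), Slc2a1 (33.6 against 86.7 CPM) and Hk2 (143 against 229 CPM). Of the 21 tested genes of the protease list, 3 were higher and 5 lower, beside 2.78% and 2.2% of all tested genes. The aggrecanase Adamts5 had 803 against 265 CPM and the inhibitor Timp1 149 against 399 CPM. The osteopontin gene Spp1 had 52.2 CPM in DATG replicate 2, 104 and 417 CPM in KO, and 51.9 and 76.4 CPM in WT fibroblasts, against 476 CPM in DATG replicate 2, 1504 and 955 CPM in KO, and 475 and 365 CPM in WT for the other class (log2 fold change -2.67, SE 0.40, adjusted p 0.00696). Megf10, an engulfment receptor, showed the lowest ratio among named genes, with 9.64 ± 4.06 CPM in fibroblasts and 109 ± 43.4 CPM in the other class. Ptgs2, which did not pass between conditions, averaged 57.8 CPM in fibroblasts and 317 CPM in the other class (log2 fold change -2.32, adjusted p 0.00523), and 8030451A03Rik, which also passed, ranged from 5.49 to 421 CPM in fibroblasts and from 51.8 to 4022 CPM in the other class. Lgr6, Tes, Unc5c, Thsd4, the pyrophosphate transporter gene Ank, Gpr39, the phosphate transporter gene Slc20a1 and Tmem200a completed the lower side, with log2 fold changes of -2.69 to -1.53. Without KO replicate 2, which held 135 of the 258 other nuclei, 203 genes were called in place of 335, and 185 were shared.

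**Figure D5:**
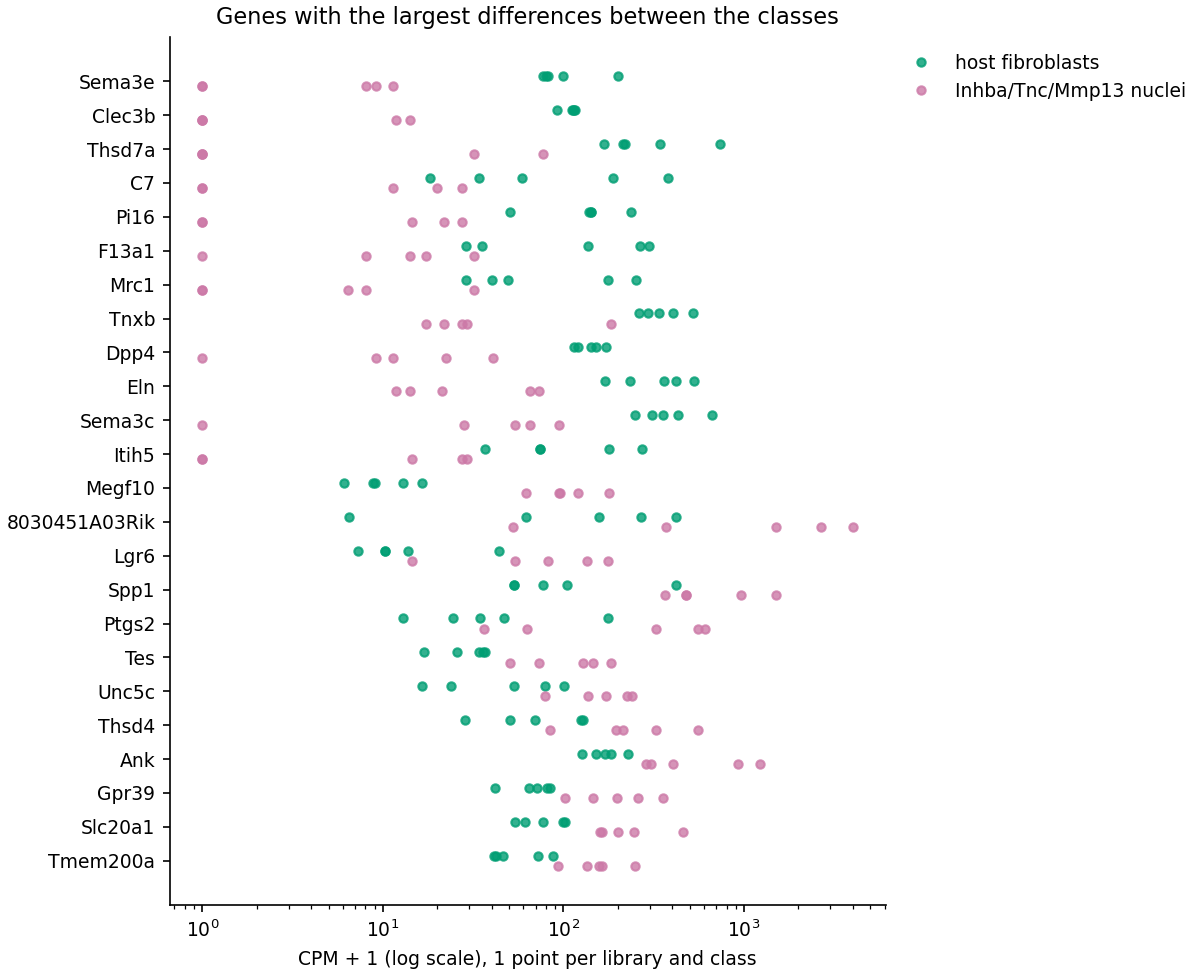
CPM + 1 (log scale) of the 24 genes named for the comparison of host fibroblasts (upper, green) with the Inhba/Tnc/Mmp13 nuclei (lower, pink), 1 point per library and class over 5 libraries. Within every library Sema3e to Itih5 are higher in fibroblasts and Megf10 to Tmem200a in the other class, though the ranges over libraries overlap for some genes, such as Lgr6; Megf10 lies at 9.64 CPM on average in fibroblasts and 109 CPM in the other nuclei.

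Against the 185 endothelial nuclei, over all 6 libraries, 1726 of 5251 genes passed (32.9%), of which 928 (17.7%) were higher and 798 (15.2%) lower in fibroblasts (edgeR with library as a block, adjusted p under 0.05; DESeq2 called 2314). The genes that defined the classes were given no test, and the comparison describes classes set by marker genes of the same nuclei. Cdh11 had 6172 UMIs in fibroblasts and none among 393153 endothelial UMIs. With the floor of 3 counts over the class, it was at least 169.5-fold higher in fibroblasts (adjusted p 1.69e-08). On the same footing the kinase gene Dclk1 was at least 110.0-fold higher, the ephrin receptor gene Epha3 at least 102-fold, Il33 at least 96.9-fold, Adgrd1 at least 74.6-fold, the procollagen peptidase gene Adamts2 at least 50.04-fold, the minor fibrillar collagen gene Col11a1 at least 47.8-fold, and the endothelin receptor gene Ednra at least 35.8-fold. Also without a UMI in endothelial nuclei were Tmeff2, Nova1, Pappa and Adcy2. All 6 tested fibrillar collagens were higher, with a median log2 fold change of 5.04 when the 2 absent from endothelium are set at their bound and 5.91 as fitted, and so were all 10 activated fibroblast genes (4.77), 12 of 13 collagen processing genes (3.54), and 15 of 18 proteases and inhibitors (2.64), beside a median of 0.05 for all tested genes.

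The lower side held known endothelial genes: the transcription factor Mecom had 50.5 ± 45.7 CPM in fibroblasts and 4796 ± 1110 CPM in endothelial nuclei (SD, n = 6 libraries each, log2 fold change -6.88), Adgrl4 15.2 against 1355 CPM, Tal1 0.252 against 118 CPM and Pcdh17 0.952 against 208 CPM. Gimap4, Gimap6, Dipk2b, Nr5a2, Tacr1, She, Gm46565 and Gm56622 completed that side, with log2 fold changes of -7.86 to -6.72. Interferon and antigen presentation genes were lower in 5 of 9 and higher in none, and S phase genes lower in 2 of 4. Of all tested genes, 15.2% were lower and 17.7% higher.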

How the data were processed

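Nuclei of frozen teratomas were freed on a Singulator and made into 10x Genomics 3′ libraries, per the labels' protocols. The authors deposited a matrix of raw UMI counts per feature and barcode for each library, from a joint human and mouse reference, not normalized. Cell Ranger 8.0.1 is named per the submitters' processing notes and 8.0.0 per the file headers. The notes name the mouse build GRCm38 and the feature names GRCm39, and no coordinates are printed. Intron and strand settings were not given in the sources used here.

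Both members and gene lists were chosen with earlier results of these data known, so counts over them are descriptions. No row lacked a gene. Mouse counts of members were summed per library and tested with edgeR 4.0.16 (R 4.3.3; quasi-likelihood, robust, TMM scaling, low-count filter, Benjamini-Hochberg adjusted p under 0.05 over all genes tested); the common coefficient of variation between libraries was 34.0%. CPM values are scaled by TMM, except summed, sub-cluster and other-class levels, which are CPM of the UMIs as counted. DESeq2 1.42.0, other scaling and filters, stricter members and leaving out each library were alternatives. Classes were compared with the library as a block. Sub-clusters came from 1500 variable genes, 20 components, 15 neighbours and resolution 0.5. No doublet caller was run; members with markers of other types are counted instead. Genes named between conditions had groups that did not overlap and a mean of at least 20 CPM, up to 8 past the threshold per direction, filled to 5 by the smallest p; between classes, the 12 largest changes per direction with the same sign in every library and at least 50 CPM; for levels, the 20 highest means; in lists, the highest levels and smallest p. Acta2, Tagln, Foxo1 and Wif1, and leading genes of sub-clusters past the 6 of highest fold, were named after their values were seen.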

Additional observations from a re-analysis of the deposited data

How the results depend on the processing

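Between conditions, the counts of called genes depended on the processing, and no named gene changed sign under any alternative. For KO against WT, DATG against WT and DATG against KO, edgeR called 0, 1 and 0 genes. Without the low-count filter it called 39, 137 and 291, and DESeq2 called 1, 16 and 36. Leaving out 1 library gave 0 to 1, 0 to 89 and 0 to 141 genes, the highest without DATG replicate 1; the lone library is assumed to vary like the other groups. DATG against WT gave 0 genes with its 4 libraries alone, with at least 90% mouse UMIs and without sub-clusters 1, 4 and 8, an alternative added after the data were seen. With the replicate number as a block the counts were 1, 10 and 17. Differences between replicates 1 and 2 correlated across genes at 0.436 for DATG and KO, 0.245 for DATG and WT and 0.2 for KO and WT, but the labels give no shared origin for equal numbers, so the block is not taken as a pairing. Against the Inhba/Tnc/Mmp13 nuclei, 335 genes became 546 without the filter and 203 to 286 with 1 library left out; against endothelium, 1726 became 3435 without the filter and 1524 to 1720 with 1 library left out. Without DATG replicate 2 the share difference between DATG and WT turned to -0.849 points, within a range of -0.849 to 5.25; it was -16.9 to -7.55 for KO against WT and 9.76 to 19.1 for DATG against KO. A minimum of 4 positive genes, a needed UMI for Pdgfra, Dcn or Lama2 (added later) and removal of members with macrophage or endothelial markers kept each count within 1.5 times. Over the named genes and all settings, 8, 31 and 35 values gained a call in the 3 condition comparisons and 6 lost one (mt-Nd3), while all 295 and 336 values of the class comparisons kept theirs. The cause of these shifts was not tested. With 190 to 927 members per library, transcripts at a few UMIs stay beyond reach of the condition tests.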

Other observations

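Levels of cell cycle genes were uneven between the libraries of KO and between those of WT, and closer in DATG. The summed level of 21 G2 and M phase genes in the host fibroblasts was 493 and 426 CPM in DATG, 805 and 116 CPM in KO, and 676 and 95.4 CPM in WT. By sub-cluster it was 934 CPM in sub-cluster 6 and 865 CPM in sub-cluster 3, 981 CPM in the 12 nuclei of sub-cluster 8, 497 CPM in sub-cluster 1, and 17.5 to 113 CPM in sub-clusters 2, 4, 5 and 7. The proliferation genes Top2a and Mki67 had 157 and 82.3 CPM in sub-cluster 6 and 8.45 and 7.75 CPM in sub-cluster 2. The WNT inhibitor gene Wif1 had 591 CPM in sub-cluster 6, 302 CPM in sub-cluster 7 and at most 135 CPM in any other. Interleukin 6 was found in few nuclei: Il6 had a UMI in 1 and 6 fibroblasts of the DATG libraries, 11 and 24 of the KO libraries, and 5 and 5 of the WT libraries. In KO replicate 2 it reached 206 CPM in sub-cluster 3 and 33.1 CPM in sub-cluster 2, while in KO replicate 1 it had 39.1 CPM in sub-cluster 3 and 64.9 CPM in sub-cluster 2.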
